A study of Mus musculus with 6 samples.

Results

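miR-218 is a microRNA made from a pair of hairpins that lie inside introns of the Slit2 and Slit3 genes, and it was examined in small RNA libraries of mouse nephron progenitors and whole embryonic kidney. Members were all rows of the deposited miRNA table whose mature name starts with mmu-miR-218 followed by an arm or a locus number. This rule found 1 of the 535 mature miRNAs, miR-218-5p, listed on 2 of the 792 rows, each row pairing a mature strand with one precursor hairpin. The members of mmu-miR-218 were therefore 1 mature strand and its 2 precursor rows, mir-218-1 and mir-218-2, and the 3p strands were not analysed here.

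All libraries came from kidneys of CD1 mouse embryos at embryonic day 15.5, with 3 libraries of nephron progenitors (MNP) and 3 of whole kidney (MWK). The authors state that the 3 biological replicates came from 3 litters. Nephron progenitors, the mesenchymal cells that give rise to the nephrons, were obtained by limited digestion and by removing cells that carry CD140a, CD105, Epcam or Ter119 with magnetic beads. The whole kidney group was the tissue left over from that digestion, and the authors describe minor contamination of the progenitor cells by renal stroma. RNA was purified with a Micro Kit in the first group and a Mini Kit in the second, so kit, cell isolation and group cannot be told apart. With 1 value per mature miRNA, the libraries MNP1, MNP2 and MNP6 held 393951, 436112 and 333850 counts, while MWK1, MWK2 and MWK6 held 349241, 360221 and 355848 counts.

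Slit proteins are secreted ligands of Robo receptors, known for guiding axons, and in the developing kidney Slit2 acting through Robo2 restricts where the ureteric bud grows out from the nephric duct. miR-218 sits in the sense orientation in their introns, so a transcript of the host gene can also carry the hairpin. The mature strand is guided to its target mRNAs mainly by its seed, and Robo1 is among its known targets. Host transcripts and targets were not measured in these small RNA libraries.

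The mature strand is shown because it is the molecule that was counted, with its seed (bases 2 to 8) in capitals.
miR-218-5p: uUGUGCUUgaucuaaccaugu
The RefSeq tables of GRCm38.p6 gave this sequence for both loci, and 440 of the 535 mature names in the table matched a RefSeq sequence. Among 1679 mature names in the reference, 1 other strand, miR-7002-3p, had the same seed, and none of the other matched strands in the count table had it. Among the matched names, no shared-seed relative of miR-218-5p was therefore available to compare, and the seeds of the unmatched names were not checked.

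Both hairpins are shown because the rest of the results turns on which of them a count was listed under, and capitals mark the 5p strand in each.
mir-218-1: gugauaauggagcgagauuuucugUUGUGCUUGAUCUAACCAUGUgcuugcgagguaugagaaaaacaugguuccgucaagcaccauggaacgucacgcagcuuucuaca
mir-218-2: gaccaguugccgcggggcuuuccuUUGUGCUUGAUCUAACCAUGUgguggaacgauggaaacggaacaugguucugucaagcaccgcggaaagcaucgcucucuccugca
The hairpins were identical at 81 of 115 aligned columns. The 21 bases of the 5p strand were the same in both, the hairpins shared 1 further base after it and 0 before it, and they first differed at position 23, counted from 1 at the 5′ end of the strand. A read that holds only the strand therefore matches both hairpins equally, while a read that extends further can match one better than the other.

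On GRCm38.p6, mir-218-1 lies at chr5:48223942-48224051 on the plus strand, with its 5p strand at 48223966 to 48223986. In the GENCODE annotation of the same build it falls in an intron of 4 Slit2 transcripts, numbered 14 to 16 in transcripts of 36 to 39 exons, and 601 bases separate it from the next exon in each. mir-218-2 lies at chr11:35616816-35616925 on the plus strand, with its 5p strand at 35616840 to 35616860, in intron 14 of a Slit3 transcript of 36 exons. The intron is 3662 or 4572 bases long in the Slit2 transcripts and 9571 bases long in the Slit3 transcript. Both host genes are on the same strand as their hairpin, and the remaining family member, Slit1, holds 0 annotated miRNA genes.

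miR-218-5p was lower in nephron progenitors than in whole kidney. Counts were scaled to a common library total (CPM) with TMM, the composition correction of edgeR, and the higher of both rows was taken in each library. miR-218-5p stood at 1667, 1629 and 1317 CPM in MNP1, MNP2 and MNP6, against 2309, 2207 and 2452 CPM in MWK1, MWK2 and MWK6. Every whole kidney library lay above every nephron progenitor library, and MNP6 was the lowest of the 6. Nephron progenitors averaged 1538 ± 192 CPM and whole kidney 2323 ± 123 CPM (mean ± SD, n = 3 per group), so the level was 1.51-fold lower in nephron progenitors. The exact two-sided permutation test gave p = 0.1 for these means, the smallest value that 3 against 3 libraries allow. In edgeR's quasi-likelihood F test with Benjamini-Hochberg adjustment over 525 miRNAs, the log2 fold change was -0.59 (SE 0.17, adjusted p = 0.013). These are bulk samples, in which fewer cells that make miR-218 and less miR-218 per cell cannot be told apart.

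The fold was small among the miRNAs that were lower past the threshold. Of the 525 miRNAs tested, 192 (36.6%) passed the adjusted threshold of 0.05, and miR-218-5p was 1 of the 90 (17.1%) that were lower in nephron progenitors. Only 2 of these 90, miR-5099 and miR-708-3p, had a smaller fold than miR-218-5p, which ranked number 143 by p among all tested. Its groups did not overlap in CPM, which was also true, in the same direction, of 122 miRNAs (23.2%), miR-218-5p included. The median log2 fold change over all 525 was -0.011.

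The call depended on the scaling, on single whole kidney libraries, on the replicate block and on which rows entered the fit. With edgeR's quasi-likelihood F test and Benjamini-Hochberg adjustment, the log2 fold change was -0.40 (adjusted p = 0.074) with library totals in place of TMM, -0.47 (adjusted p = 0.080) with upper-quartile scaling, -0.60 (adjusted p = 0.057) without MWK1 and -0.55 (adjusted p = 0.051) without MWK6. With the replicate number as a block in the 4 numbered libraries it was -0.48 (edgeR adjusted p = 0.067), against -0.49 (adjusted p = 0.047) in these libraries without the replicate block. The same counts, tested with every precursor row of the table on its own, gave -0.53 (edgeR adjusted p = 0.054). Library totals moved the median of all miRNAs to 0.19 and upper-quartile scaling moved it to 0.11, and relative to that median miR-218-5p was at -0.59 and -0.57, against -0.58 with TMM.

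miR-218-5p was a moderately abundant miRNA in both groups. By mean CPM it ranked number 69 in nephron progenitors and number 55 in whole kidney, at 1538 and 2323 CPM with TMM scaling. Over the 6 libraries it ranked number 64. The 3 miRNAs just above it in mean CPM were miR-130b-5p, miR-7a-5p and miR-872-5p, and the 3 just below it were miR-744-5p, miR-191-5p and miR-181c-5p. None of these 6 neighbours in abundance was past the threshold with edgeR's quasi-likelihood test, where their Benjamini-Hochberg adjusted p ran from 0.070 for miR-130b-5p to 0.92 for miR-744-5p. In nephron progenitors miR-218-5p had the lowest mean of the 7, and in whole kidney the highest. Its closest neighbours in those orders, miR-191-5p with 1753 ± 189 CPM among nephron progenitors and miR-872-5p with 2263 ± 66.1 CPM among whole kidneys (mean ± SD, n = 3), had mean ± SD ranges that overlapped its own, and these differences between miRNAs were not tested.

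The balance between the precursor rows of miR-218-5p differed between the groups. The mir-218-1 row held 514, 568 and 360 counts in MNP1, MNP2 and MNP6, against 695, 638 and 766 counts in MWK1, MWK2 and MWK6. The mir-218-2 row held 677, 748 and 501 counts in the same nephron progenitor libraries, and 768, 701 and 840 counts in the whole kidney libraries. In all 6 libraries the mir-218-2 row was the higher one, by a wide margin in nephron progenitors and a narrow one in whole kidney. The net excess of the mir-218-2 row was 163, 180 and 141 counts in nephron progenitors and 73, 63 and 74 counts in whole kidney.

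As a percentage of the mir-218-2 row, the net excess was 24.1%, 24.1% and 28.1% in MNP1, MNP2 and MNP6, against 9.51%, 8.99% and 8.81% in MWK1, MWK2 and MWK6. The groups did not overlap in this percentage either. The net excess is the arithmetic difference of the 2 row totals, and no read was assigned to it.

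Expressed as the ratio of the mir-218-1 row to the mir-218-2 row, the values were 0.759, 0.759 and 0.719 in MNP1, MNP2 and MNP6, against 0.905, 0.910 and 0.912 in MWK1, MWK2 and MWK6. Nephron progenitors had a mean ratio of 0.746 ± 0.0235 and whole kidney one of 0.909 ± 0.00361 (mean ± SD, n = 3 per group), and the groups did not overlap (exact permutation test, two-sided, p = 0.1). This ratio comes from counts within 1 library and does not depend on the scaling between libraries.

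**Figure D1:**
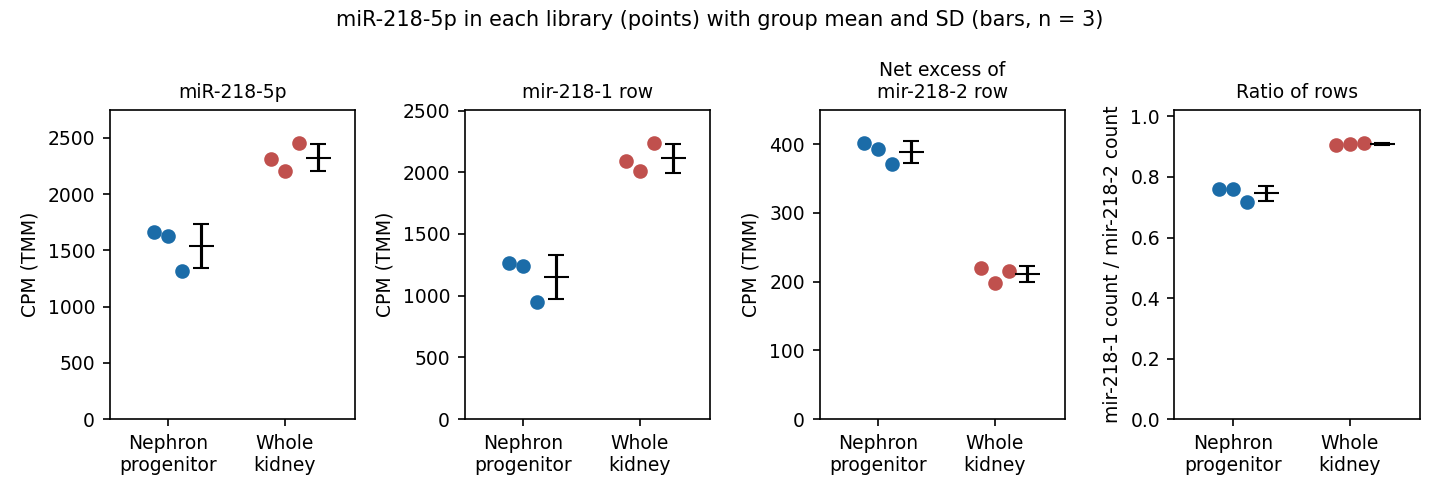
Levels of miR-218-5p, of its mir-218-1 row and of the net excess of the mir-218-2 row, in CPM with TMM scaling, and the ratio of the rows as a plain number; points are the 3 libraries of each group, and bars are the mean and SD. The first pair of levels and the ratio were higher in whole kidney, while the net excess was higher in nephron progenitors, at 388 against 211 CPM.

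In CPM, the mir-218-1 row was lower and the net excess of the mir-218-2 row higher in nephron progenitors. The mir-218-1 row stood at 1265, 1237 and 946 CPM in MNP1, MNP2 and MNP6, against 2090, 2009 and 2236 CPM in MWK1, MWK2 and MWK6. All nephron progenitor libraries lay below all whole kidney libraries, and the mean was 1.84-fold lower. With every precursor row tested on its own, the mir-218-1 row fell by 0.81 on the log2 scale (SE 0.21, adjusted p = 0.0018 in edgeR's quasi-likelihood F test with Benjamini-Hochberg adjustment). The mir-218-2 row holds the same counts as the miR-218-5p level above, and with every row on its own it missed the threshold at -0.53 on the log2 scale (SE 0.21, edgeR adjusted p = 0.054). The net excess stood at 401, 392 and 371 CPM in MNP1, MNP2 and MNP6, against 220, 198 and 216 CPM in MWK1, MWK2 and MWK6. Here all nephron progenitor libraries lay above all whole kidney libraries, with means of 388 ± 15.8 and 211 ± 11.3 CPM (mean ± SD, n = 3 per group, exact two-sided permutation p = 0.1). Both values come from the same pair of rows, so they are not independent results.

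The ratio of rows was compared with that of other miRNAs listed on exactly 2 precursor rows. Of 40 such miRNAs, 28 had unequal rows and a mean of at least 20 counts on the higher row. These 28 hold 26 distinct pairs of rows, since let-7c-2-3p repeats the rows and counts of let-7a-1-3p, and miR-486b-5p repeats those of miR-486a-5p. In limma on the log2 ratio with Benjamini-Hochberg adjustment over these 28, miR-218-5p differed by -0.29 (95% interval -0.35 to -0.22, SE 0.025, adjusted p = 0.0048). With identical pairs entered once, an alternative chosen after seeing the data, limma's adjusted p was 0.0046 and miR-218-5p was 1 of 26 (3.85%) past the threshold. With the replicate number as a block in the 4 numbered libraries, the difference was -0.26 (SE 0.0042, limma's adjusted p = 0.054), and without the replicate block in these libraries it was also -0.26 (SE 0.0043, limma's adjusted p = 0.0016). Among all 28 it was the 1 (3.57%) past the threshold, and 2 had an unadjusted p under 0.05, the other being miR-1843b-5p. The groups did not overlap in the ratio for miR-218-5p, miR-1843b-5p and miR-28c, or 10.7% of the 28.

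For 11 of the 28 miRNAs, miR-125b-5p and miR-7a-5p among them, the rows were within 5% of each other in mean count, which leaves their ratio little room to differ between groups. Without these and with identical pairs once, a choice made after seeing the data, 15 pairs remained, and miR-218-5p was the 1 (6.67%) past the threshold of limma's test (adjusted p = 0.0037). Of the other 14 pairs, 9 had an absolute difference under 0.1 on the log2 scale, with a median of 0.032 over the 14, and 3 of the 15 had an unadjusted p under 0.05. Among miRNAs named elsewhere here, the difference was -0.035 for miR-103-3p and 0.081 for miR-128-3p. A larger difference than that of miR-218-5p was found for 4 miRNAs, named after their values were seen, and none of these passed limma's test. They were miR-101c, miR-194-5p, miR-28c and miR-1843b-5p, with a mean of 10.7, 4.83, 21.7 and 19.3 counts on the lower row, against 590 counts for miR-218-5p.

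**Figure D2:**
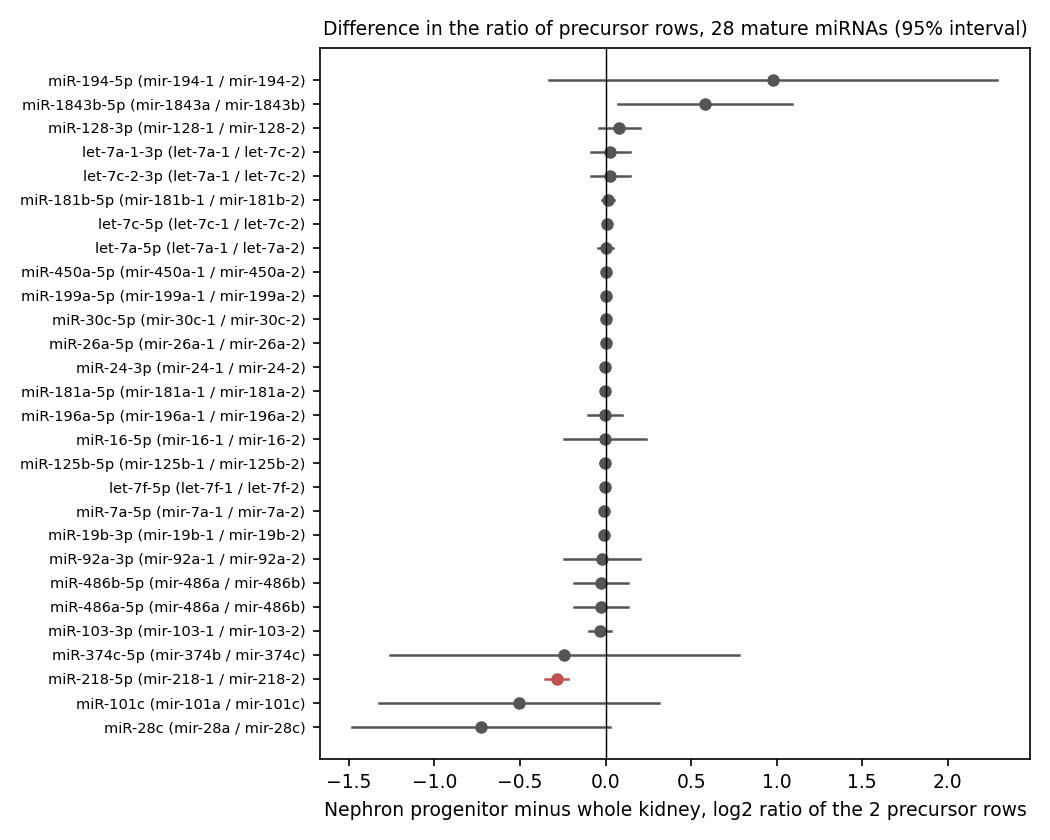
Difference between nephron progenitors and whole kidney in the log2 ratio of precursor rows (horizontal axis) for the 28 miRNAs listed on 2 unequal rows; points are differences and lines their 95% intervals from limma, with miR-218-5p in red. miR-218-5p lies at -0.29 with an interval that does not reach 0, and the miRNAs at 0 include those whose rows are nearly equal in every library. The interval of miR-1843b-5p, at 0.58, does not reach 0 either, and the intervals are not adjusted for the number of miRNAs compared.

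The deposited counts do not hold the ends of reads. A shift in the share of Slit2 and Slit3 transcripts as the source of miR-218-5p and a shift in where its reads end cannot be told apart from these rows, and the comparison of rows was chosen after the table had been seen.

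Some strands of other families carry a locus number in their name. For 8 such pairs each strand is listed on the row of its own locus alone, so that counts can be split by locus, and let-7c-3p was left out because let-7c-2-3p is also listed under let-7a-1. Of the 8 pairs, 4 (50%) had a share of locus 1 that did not overlap between the groups. Given as nephron progenitors against whole kidney, the share of locus 1 was 64.1 ± 0.885% against 50.4 ± 4.10% for miR-125b-3p and 42.1 ± 9.29% against 67.4 ± 6.89% for miR-181a-3p (mean ± SD, n = 3 per group). In the same order it was 40.2 ± 4.88% against 64.9 ± 10.1% for miR-196a-3p and 12.8 ± 3.69% against 2.98 ± 1.89% for miR-30c-3p (mean ± SD, n = 3 per group). The other pairs, from let-7f, miR-16, miR-181b and miR-24, overlapped. In these 4 pairs of other families the share of locus 1 thus did not overlap between the groups. The exact permutation p was 0.1 for each, the smallest value that 3 against 3 libraries allow. Few counts stood behind these shares. Both loci together held as few as 61 counts in a library for miR-125b-3p and miR-196a-3p, 89 for miR-181a-3p and 47 for miR-30c-3p. The row ratio of miR-218-5p is not the same measure.

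A single other miRNA of the table, miR-103-3p, lies within 1 Mb of a mir-218 hairpin. It has a precursor 165 kb from mir-218-2 in Pank3, a pantothenate kinase gene, and averaged 2767 ± 142 CPM among nephron progenitors against 3258 ± 205 CPM among whole kidneys (mean ± SD, n = 3 per group). miR-103-3p did not pass edgeR's quasi-likelihood F test with Benjamini-Hochberg adjustment (log2 fold change -0.24, SE 0.15, adjusted p = 0.27). Because miR-103-3p has another precursor, mir-103-2, its level is not a measure of the Slit3 region alone.

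Like miR-218, 188 of the tested miRNAs lie in an intron of a protein-coding gene on the same strand. In edgeR's quasi-likelihood test, 30 of these (16.0%) were lower in nephron progenitors and 14 (7.45%) were higher, with a median log2 fold change of -0.14. Over all 525 miRNAs, 90 (17.1%) were lower and 102 (19.4%) higher, so the share of intronic miRNAs on the same side as miR-218-5p was near that of all miRNAs.

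The miRNAs whose log2 CPM followed miR-218-5p most closely over the 6 libraries were miR-15b-5p (Pearson r = 0.998), miR-200a-5p (0.974), miR-200b-3p (0.970), miR-32-5p (0.969) and miR-200a-3p (0.965). They were chosen among 285 miRNAs with a mean of at least 50 CPM, of which 42 had an r above 0.9. The lowest r were those of miR-125b-5p (-0.978), miR-323-3p (-0.977) and miR-132-5p (-0.976). The libraries form 2 groups that differ in all of these miRNAs, so r is a description of shared group differences over the same libraries and was not tested. Among the 5 most alike, the folds varied widely, from a log2 fold change of -0.72 for miR-15b-5p to -6.86 for miR-200a-3p. The 3 with the lowest r were higher in nephron progenitors, with log2 fold changes from 1.62 for miR-125b-5p to 1.91 for miR-323-3p.

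Markers of other cell types were read beside miR-218-5p, and their counts stand against 17.1% lower and 19.4% higher among all 525 miRNAs. Among the 7 strands of the epithelial miR-200 family, 7 were lower and 0 higher in nephron progenitors, with summed levels of 227, 386 and 89.3 CPM in MNP1, MNP2 and MNP6, against 23975, 25414 and 21834 CPM in MWK1, MWK2 and MWK6. miR-200a-3p was the most abundant of them, and miR-141-3p and miR-200b-5p were at 0 counts in all nephron progenitor libraries, where 3 counts equal 6.88 to 8.99 CPM by library totals. Both strands of endothelial miR-126a were lower, led by miR-126a-3p, with sums of 419, 595 and 578 CPM in MNP1, MNP2 and MNP6 against 20132, 21311 and 18150 CPM in MWK1, MWK2 and MWK6. The ratio of nephron progenitor to whole kidney means was 0.00985 for the epithelial sum and 0.0267 for the endothelial sum, against 0.662 for miR-218-5p.

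The list of stroma, smooth muscle and pericytes had no common direction. It holds 10 strands, of which miR-199a-3p and miR-199b-3p have the same counts and were summed once. The sum was 37322, 49543 and 50329 CPM in MNP1, MNP2 and MNP6, against 76323, 88177 and 73391 CPM in MWK1, MWK2 and MWK6, and miR-143-3p was its most abundant strand. Without miR-143-3p the sum was 16053, 21449 and 24705 CPM in MNP1, MNP2 and MNP6, against 16007, 17171 and 16343 CPM in MWK1, MWK2 and MWK6, and the groups overlapped. The ratio of nephron progenitor to whole kidney means was 0.577 with miR-143-3p and 1.26 without it, and the median log2 fold change of the 9 distinct strands was 0.17. Of the 10 strands, 2 were lower (miR-143-3p and miR-145a-5p) and 1 was higher (miR-199b-5p), against 17.1% and 19.4% over all miRNAs. miR-143-3p fell by 1.33 on the log2 scale in edgeR's quasi-likelihood test (SE 0.15, Benjamini-Hochberg adjusted p = 1.5e-05). miR-199a-5p of the same list did not pass (log2 fold change 0.40, SE 0.21, edgeR adjusted p = 0.16).

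Among 3 strands listed for neurons, 2 were lower (both strands of miR-9) and 0 higher, with sums of 1418, 1464 and 1571 CPM in MNP1, MNP2 and MNP6, against 5659, 6310 and 5642 CPM in MWK1, MWK2 and MWK6. miR-9-5p averaged 73.0 ± 14.1 CPM among nephron progenitors and 4357 ± 426 CPM among whole kidneys, whereas miR-128-3p, which did not pass edgeR's test (log2 fold change -0.079, SE 0.16, adjusted p = 0.76), averaged 1411 ± 80.8 and 1490 ± 82.5 CPM (mean ± SD, n = 3 per group). The sums in nephron progenitors were therefore mostly miR-128-3p and those in whole kidney mostly miR-9-5p, and miR-124 and miR-137 were not analysed here. The 7 erythroid strands hold 5 distinct sets of counts, since strands of miR-486a and miR-486b have the same counts. Of these 5, 4 were lower and 0 higher in nephron progenitors, with sums of 391, 283 and 176 CPM in MNP1, MNP2 and MNP6, against 1495, 1486 and 762 CPM in MWK1, MWK2 and MWK6, and miR-451a had the highest mean over the 6 libraries.

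Of 4 strands of skeletal or cardiac muscle, 1 was higher (miR-206-3p) and 0 lower, near the 19.4% higher among all miRNAs, and the sums were 327, 460 and 142 CPM in MNP1, MNP2 and MNP6, against 75.2, 139 and 61.3 CPM in MWK1, MWK2 and MWK6. Of 5 leukocyte strands, 1 was higher (miR-223-5p, at 0 counts in whole kidney) and 0 lower, again near the share over all miRNAs. The leukocyte sums were 135, 152 and 71.0 CPM in MNP1, MNP2 and MNP6, against 87.2, 101 and 61.3 CPM in MWK1, MWK2 and MWK6. miR-142a-3p had the highest mean over all libraries. miR-142a-3p averaged 49.8 ± 29.6 CPM among nephron progenitors, against 31.9 ± 4.84 CPM for miR-142a-5p (mean ± SD, n = 3 per group). Among whole kidneys these strands averaged 30.3 ± 3.56 and 35.5 ± 8.92 CPM. Neither passed edgeR's test (adjusted p = 0.26 for miR-142a-3p and 0.81 for miR-142a-5p). miR-206-3p averaged 178 ± 108 CPM among nephron progenitors and 6.22 ± 8.38 CPM among whole kidneys, where miR-1a-3p, which did not pass edgeR's test (adjusted p = 0.22), was the higher strand at 70.1 ± 23.9 CPM (mean ± SD, n = 3 per group). miR-133b, miR-208a and miR-208b were not analysed here. The part of these cell types in the difference in miR-218-5p, and in its ratio of rows, was not tested.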

How the data were processed

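Small RNA was sequenced from 3 nephron progenitor and 3 whole kidney libraries. After adapter trimming with BBDuk, the authors mapped reads to mm10 with Bowtie2 2.2.3 (version from the submitters' processing notes) and quantified known miRNAs with miRDeep2. The deposited values are estimated counts per pair of mature miRNA and precursor, without normalization. How reads that match several precursors were counted is not given in the sources used here. Fractions in 3 rows were rounded to whole numbers. The design assumed counts, and its test was applied to the rounded expected counts.

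In each library the highest count over the rows of a mature miRNA was kept, and miRNAs whose counts summed to more than 10 over all libraries were tested with edgeR 4.0.16 (quasi-likelihood test, TMM scaling, Benjamini-Hochberg adjustment, threshold 0.05) in R 4.3.3. Standard errors were derived from the log2 fold change and the root of the F statistic. The log2 ratio of precursor rows, with 0.5 added to each count, was tested with limma 3.58.1, and this comparison was chosen after seeing the data. Planned shares of 3p arms and of loci could not be computed. Replicates were compared by chi-square tests of their counts, with the statistic divided by its degrees of freedom. This was 16.8 to 43.9 for pairs of nephron progenitor libraries and 2.47 to 6.91 for pairs of whole kidney libraries. No pair was therefore the same within sampling noise, and the nephron progenitor libraries differed more from each other.

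The columns MNP6 and MWK6 matched the name of no single sample and were used by group, with no replicate number. Groups came from the sample labels. Alternatives covered DESeq2 1.42.0, limma-voom, scaling, the filter, sums, means or single rows in place of the highest row, removal of the 10 most abundant miRNAs, a replicate block and leave-one-out fits. The steps were tested on simulated data. Hairpins came from RefSeq and host genes from GENCODE. Figures were drawn with matplotlib 3.10.9.

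The members and lists were chosen with earlier results of these data known. Named miRNAs follow a rule, apart from those of the ratio of rows, miR-5099, miR-708-3p and called members of marker lists, named after their values were seen: the strands of miR-218, the 5 most and 3 least like in log2 CPM (prior count 2, mean of at least 50 CPM), shared seeds, miRNAs within 1 Mb, 3 neighbours above and below in mean CPM, up to 4 abundant members of each marker list, strands named by locus and listed under it alone, and the 3 largest rises and falls of intronic miRNAs. The lists were epithelium, endothelium, erythroid cells, stroma with smooth muscle and pericytes, neurons, muscle, leukocytes and intronic miRNAs.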

Additional observations from a re-analysis of the deposited data

How the results depend on the processing

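miR-218-5p was lower in nephron progenitors under every alternative run. With single precursor rows counted as separate alternatives, the threshold was passed in 14 (log2 fold change -0.81 to -0.49) and missed in 6. The value of -0.81 was that of the mir-218-1 row alone, and the mean over precursor rows gave -0.72. DESeq2 gave -0.58 (adjusted p = 0.013) and limma-voom -0.60 (adjusted p = 0.012). The threshold was missed with library totals (-0.40, adjusted p = 0.074), with upper-quartile scaling (-0.47, adjusted p = 0.080) and for the mir-218-2 row with every precursor row on its own (-0.53, adjusted p = 0.054), all in edgeR. Leaving out each library in turn gave -0.66 to -0.53, with the threshold missed without MWK1 and without MWK6. The material came from 3 litters, with whole kidney taken from the remains of the digestion, but the sources used here leave unstated whether libraries of equal number share a litter, and the correlation of the differences between numbers 1 and 2 in both groups was 0.0394 across miRNAs, which are not independent replicates. With the replicate block on these 4 libraries, miR-218-5p was at -0.48 (edgeR adjusted p = 0.067), against -0.49 (adjusted p = 0.047) without it, and the ratio of rows was at -0.26 (limma adjusted p = 0.054) with the block and -0.26 (adjusted p = 0.0016) without it. The ratio of rows was at -0.30 to -0.26 when each library was left out, past the threshold each time, and at -0.29 (adjusted p = 0.0046) with identical pairs of rows entered once, and at -0.29 (adjusted p = 0.0037) among pairs that differ by at least 5%. An added edgeR fit held the mir-218-1 row and the net excess as separate features. In the 11 alternatives run for each, the row was at -0.97 to -0.68 and the net excess at 0.82 to 1.08. The net excess is a difference of totals and not a count, so no p from this fit is given for it. The summed miR-218 level in nephron progenitors was 60.6% to 75.8% of that in whole kidney over 11 alternatives. The number of miRNAs past the threshold was 192, and 120 when more than 10 counts were asked in every library, where 260 miRNAs were tested. It was 134 to 211 in the other alternatives, 144 to 211 when a library was left out, and 153 with the replicate block against 134 without it. Library totals gave 121 higher and 74 lower, against 102 and 90 with TMM. The shares of the 3p arms and of the mir-218-1 locus could not be computed, because the rule for members found miR-218-5p alone. The cause of these changes was not tested. Depth limits the ratio of rows through the net excess, which was as low as 63 counts in a library.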

Other observations

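The tested miRNAs in introns of protein-coding genes were ordered by fitted log2 fold change. The largest falls in nephron progenitors were those of miR-200b-5p, miR-200a-3p and miR-429-3p, all in Ttll10. miR-200a-3p fell from 12440 ± 1205 to 105 ± 67.5 CPM and miR-429-3p from 1782 ± 169 to 19.5 ± 10.5 CPM (SD, n = 3 each). miR-200b-5p was at 101 ± 17.0 CPM in whole kidney and at 0 counts in nephron progenitors, so its place in this order is uncertain. The largest rises were those of miR-383-5p in Sgcz (log2 fold change 2.19, adjusted p = 0.00044 in edgeR's quasi-likelihood test), miR-26b-3p in Ctdsp1 (1.58, adjusted p = 0.022) and let-7e-3p in Spaca6 (1.19, adjusted p = 0.022).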
